A study of Mus musculus with 9 samples.

Results

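Potassium channels let K+ ions leave the cell and so set the resting potential, shape the action potential and decide how regularly a neuron fires. The genes described here are the 90 protein-coding entries, of 32787 in the count table, whose symbol starts with Kcn. They were counted in single cells of the mouse ventral midbrain, which holds both the dopamine neurons of the substantia nigra and ventral tegmental area and the GABA neurons around them. By role, 29 of the genes encode voltage-gated pore subunits and 10 encode alpha subunits that only modify other pores. Another 14 encode inward rectifiers, 14 encode two-pore leak channels, and 10 encode subunits of calcium- or sodium-activated and related channels (below, calcium- or sodium-activated). The rest are 12 that encode auxiliary subunits and 1, Kcnrg, that encodes a regulator of voltage-gated channels.

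Voltage-gated channels open on depolarization and repolarize the membrane, each of them from 4 pore subunits. Inward rectifiers of the GIRK type open when a G protein-coupled receptor, such as the dopamine D2 autoreceptor or the GABA-B receptor, is active, and two-pore channels carry background leak. Small-conductance (SK) and BK channels open on calcium entry. In the adult midbrain, dopamine neurons are known as slow pacemakers with a strong A-type current, SK-dependent regularity and GIRK responses to dopamine, and the GABA neurons of the substantia nigra pars reticulata as fast-spiking cells rich in Kv3 channels.

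The embryos and pups were of the line VGAT:Ai14:PITX3-GFP, in which Cre is driven from the VGAT gene and Ai14 is its tdTomato reporter. Here tdTomato marks every cell that has at some time expressed Cre from the gene of the vesicular GABA transporter (VGAT, Slc32a1), so the label records lineage and not current expression, and GFP marks cells that express Pitx3, a transcription factor of midbrain dopamine neurons. Cells positive for tdTomato were sorted onto 7 plates (VGAT plates, 4 of stage E16 and 3 of stage P0), and cells positive for both onto 2 plates (VGAT+Pitx3 plates, 1 of each stage), which were filled on purpose beyond the share of such cells in the tissue. E16 cells came from embryos and P0 cells from newborn pups, several brains and litters were used per stage, both sorts share the line, and the labels name no treatment. No label ties a plate to an animal, so p-values measure the spread between plates, which may share animals.

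Kept were wells that held 2000 or more genes, no more than 50000 counts and a mitochondrial share under 15%. These were 2035 of 3455 wells, 1460 on VGAT and 575 on VGAT+Pitx3 plates. Total counts per plate lay between 1435919 and 5408710, so that 3 counts correspond to between 0.555 and 2.09 CPM (counts scaled to 1000000 per plate, with TMM factors where not stated otherwise). The dopamine neuron list (Th, Slc6a3, Slc18a2, Ddc, Pitx3) summed to 21.1 to 53.0 CPM on the VGAT plates and to 2481 and 1964 CPM on the VGAT+Pitx3 plates of E16 and P0. Of the GABA neuron list, Slc32a1 was at 158 to 325 CPM on VGAT plates and at 225 and 285 CPM on VGAT+Pitx3 plates, while Gad1 was at 796 to 1210 CPM on the former and at 14.5 and 10.3 CPM on the latter. Gad2 was at 493.3 to 650 CPM on VGAT plates and at 936 and 1045 CPM on VGAT+Pitx3 plates, and the whole list summed to 1573 to 2040 CPM and to 1176 and 1340 CPM. The astrocyte or radial glia list (5 genes, none at 0 throughout) summed to 149 and 139 CPM on the VGAT+Pitx3 plates, to 356 CPM on VGAT P0 replicate 2, and had a median of 9.12 CPM over the VGAT plates. The glutamate neuron list (3 genes) summed to 1.90 to 23.9 CPM on VGAT plates and to 108 and 210.4 CPM on VGAT+Pitx3 plates, and the part of these lists in the differences between the sorts was not tested beyond the fit without glial cells below. The headers hold a second plate name that gives the other stage for 4 of the 9 plates, namely VGAT E16 replicates 3 and 4 and VGAT P0 replicates 1 and 3. Stages below follow the sample titles, and whether a call held by the second name is said beside the results.

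Of the 90 genes, 11 had 3 or fewer counts over all kept cells and 54 had at least 100. At 10 CPM or more on every plate were 38 genes, and 22 genes were found in at least 10% of cells on every plate after each cell was thinned to 4000 counts, a step that makes plates of different depth comparable and left out 79 cells. Many counts were intronic: 71.4% of all Kcn counts lay outside exons, against 26.0% over all genes, and 22 of the 54 better-covered genes were more than 50% intronic. Kcnip4, which encodes the Kv4 partner KChIP4 and spans 1135.4 kb (GRCm38, chr5:48389502-49524907), was 95.8% intronic, and Kcnd2, which encodes Kv4.2 and spans 514.3 kb, was 85.4% intronic, while Kcnk9 was 2.11% intronic. Levels are therefore compared between plates for 1 gene and not between genes, and exonic counts were tested as well. A gene on the opposite strand overlaps 38 of the 90 genes, and whether the counting used strand is not stated.

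The main contrast asked how neurons with a VGAT lineage that express Pitx3 differed from the other VGAT neurons. Of the 90 Kcn genes 62 passed the filter on low counts, and 18 of these (29%) differed between the sorts, against a background of 8.93% of the 14624 genes tested (edgeR quasi-likelihood F test over 9 plates with stage in the model, Benjamini-Hochberg adjusted p under 0.05). In VGAT+Pitx3 cells 8 of them were higher (background 4.73%) and 10 were lower (background 4.2%). The median log2 fold change of the tested Kcn genes was -0.08, and that of all genes tested was -0.00. Higher were Kcnk9, Kcnk13, Kcng3, Kcnj6, Kcnd3, Kcnn3, Kcnip4 and Kcnip3, and lower were Kcnj2, Kcnh5, Kcnq5, Kcnc4, Kcnj3, Kcnip1, Kcnk3, Kcnmb2, Kcnd2 and Kcnc1. Without the VGAT+Pitx3 plate of E16, the calls that remained were Kcnk9, Kcnk13, Kcnj6, Kcnd3, Kcnn3 and Kcnip4 as higher and Kcnq5 and Kcnip1 as lower. Without that of P0, the calls of Kcng3, Kcnip4, Kcnj2, Kcnh5, Kcnk3 and Kcnc1 were lost, and a gene outside the 18 was added as lower. Each of these fits rests on 1 VGAT+Pitx3 plate. With stages by the second plate names 16 passed, 9 higher and 7 lower, with Kcnc4, Kcnk3 and Kcnj2 lost and Kcnh1, which encodes Eag1, added as higher. The share of all genes called was not computed for the fits without a plate or by the second names. Losses there can therefore not be read as particular to Kcn genes. In a plate sum, fewer cells with a gene and fewer counts per cell cannot be told apart. Shares of cells are therefore given beside Kcnk9, Kcnj6, Kcnd3, Kcnd2, Kcnip4 and Kcnn3.

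**Figure D1:**
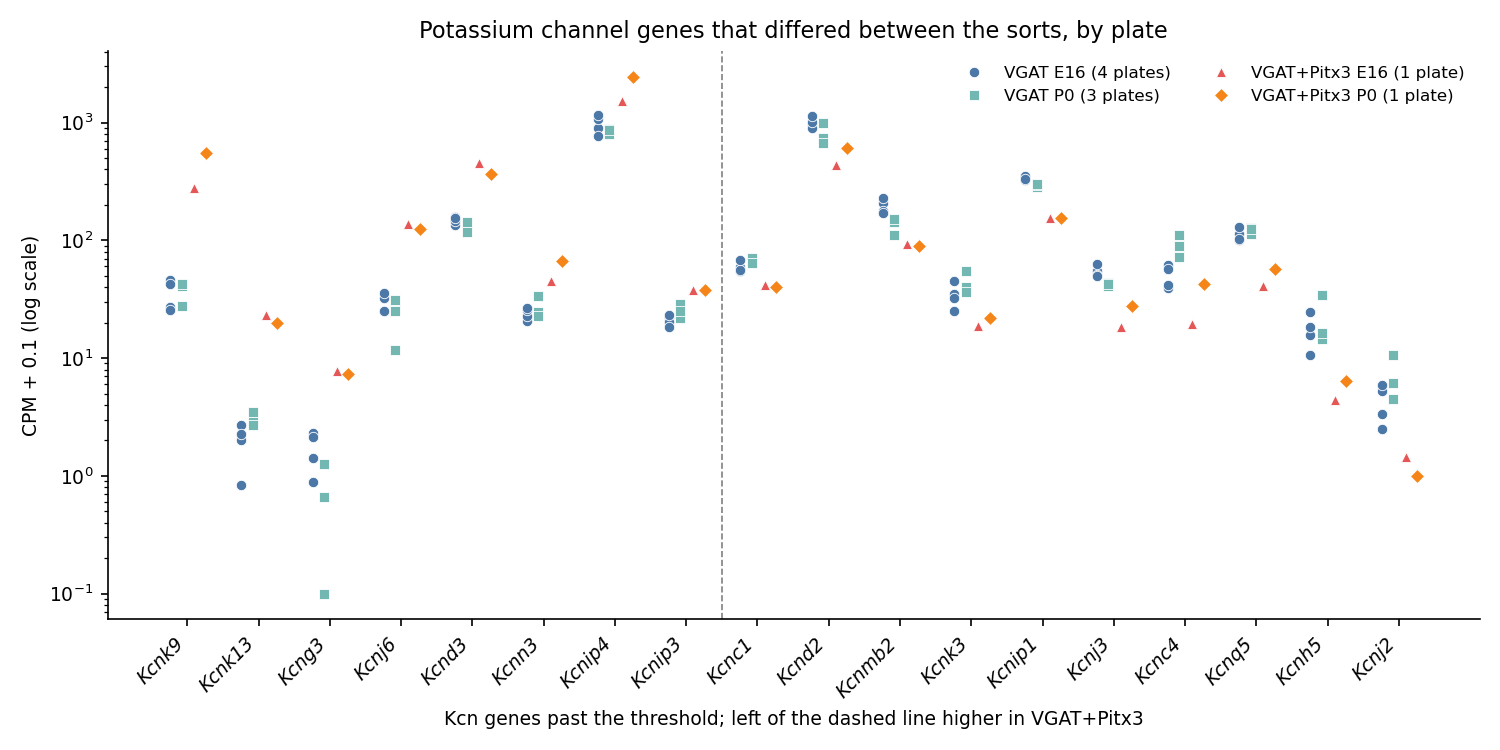
CPM plus 0.1 on a log scale (y axis) of the 18 Kcn genes that differed between the sorts (x axis, ordered by fold change), with 1 point per plate. Genes left of the dashed line were higher and genes right of it lower in VGAT+Pitx3 cells. The genes were chosen by this same contrast, and among them Kcnc4 alone overlapped between the sorts. Some genes that did not pass, such as Kcnk2 and Kcna2, did not overlap either, and the share of all tested genes without overlap was not computed.

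Two-pore channels held the strongest rises. Kcnk9 (chr15:72501089-72546340) encodes TASK-3, an acid-sensitive leak channel. On the 7 VGAT plates it was at 25.5 CPM at the lowest, 41.1 CPM at the median and 45.6 CPM at the highest, and on the VGAT+Pitx3 plates it was at 277 CPM (E16) and 549.9 CPM (P0). The groups did not overlap, with a fitted difference of log2 3.41 ± 0.21 (SE, adjusted p 5.93e-08). After thinning, 53.8% and 68.3% of VGAT+Pitx3 cells held a Kcnk9 count, against 4.65% to 11.9% of cells on the VGAT plates. Kcnk13 (chr12:99964499-100062682), which encodes THIK-1, a leak channel closed by halothane, was far rarer. It lay between 0.739 and 3.36 CPM on VGAT plates, with a median of 2.62 CPM, and at 23.1 and 19.7 CPM on the VGAT+Pitx3 plates, which differed by log2 3.26 ± 0.31 (adjusted p 5.42e-06). Kcnk3, which encodes TASK-1, the channel closest to TASK-3, went the other way. Its level was 24.9, 36.5 and 54.4 CPM (lowest, median, highest) on VGAT plates and 18.5 and 22.0 CPM on VGAT+Pitx3 plates, which is log2 -0.93 ± 0.23 (adjusted p 0.0183), and the call was lost without either VGAT+Pitx3 plate. The mechanosensitive channels TREK-1 (Kcnk2, log2 0.42 ± 0.15) and TREK-2 (Kcnk10, log2 -0.08 ± 0.15) did not pass the threshold.

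Among inward rectifiers, the GIRK subunits moved in opposite directions. Kcnj6 (chr16:94748636-94997701), which encodes GIRK2, the pore subunit through which D2 and GABA-B receptors act in dopamine neurons, was at 11.7, 25.3 and 35.5 CPM (lowest, median, highest) on VGAT plates and at 137 and 124 CPM on VGAT+Pitx3 plates. Both values lay above all VGAT plates (log2 2.35 ± 0.21, adjusted p 2.96e-06), and 36.1% and 30.1% of thinned VGAT+Pitx3 cells held the gene, against 3.55% to 9.90% on VGAT plates. Kcnj3, which encodes GIRK1, the subunit that pairs with GIRK2 in most other neurons, was at 40.6, 49.6 and 62.3 CPM on VGAT plates and at 18.3 and 27.4 CPM on VGAT+Pitx3 plates. It was lower, again without overlap (log2 -1.13 ± 0.20, adjusted p 0.00174). GIRK3 (Kcnj9) lay between 4.94 and 13.5 CPM on VGAT plates and at 5.65 and 4.93 CPM on VGAT+Pitx3 plates (adjusted p 0.229), and GIRK4 (Kcnj5) reached 2.99 CPM at most. Kcnj2, which encodes the classical strong rectifier Kir2.1, had 6 and 2 counts on the VGAT+Pitx3 plates, that is 1.36 CPM (95% exact Poisson interval 0.498 to 2.95) and 0.897 CPM (0.109 to 3.24), against 2.38 to 10.6 CPM on VGAT plates. Its call (log2 -2.04 ± 0.59, adjusted p 0.0446) was held in 3 of the 9 fits that each left out 1 plate.

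The receptors that open GIRK channels were counted as partners. Drd2, which encodes the D2 receptor, was at 8.75 to 12.8 CPM on VGAT plates and at 49.3 and 37.7 CPM on VGAT+Pitx3 plates (log2 2.08 ± 0.17, adjusted p 1.09e-06). The GABA-B receptor genes Gabbr1 (log2 0.17 ± 0.11) and Gabbr2 (log2 0.24 ± 0.12) did not pass. For the ATP-sensitive channel of dopamine neurons, Kcnj11, which encodes its Kir6.2 pore, was at 3.89 to 9.52 CPM on VGAT plates and at 8.82 and 5.38 CPM on VGAT+Pitx3 plates, and Kcnj8, which encodes Kir6.1, had 1 count in all. Abcc8, which encodes the SUR1 partner of Kir6.2, was at 13.8 to 23.9 CPM and at 9.72 and 19.3 CPM. Neither Kcnj11 nor Abcc8 passed the threshold.

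Among A-type channel subunits and their helpers, some members were higher and others lower. Kcnd3 (chr3:105452330-105674002), which encodes Kv4.3, the A-type pore subunit typical of midbrain dopamine neurons, was at 117, 143 and 158 CPM (lowest, median, highest) on VGAT plates and at 454 and 366 CPM on VGAT+Pitx3 plates. The rise was called in all 9 fits that left out a plate (log2 1.54 ± 0.11, adjusted p 2.96e-07). After thinning, 64.9% and 60.6% of VGAT+Pitx3 cells held Kcnd3, against 33.0% to 42.1% on VGAT plates. The other main A-type subunit, Kcnd2 (Kv4.2), was at 677, 954 and 1146 CPM and at 440.3 and 608 CPM, so its CPM fell below all VGAT plates (log2 -0.78 ± 0.20, adjusted p 0.0201). Its shares of thinned VGAT+Pitx3 cells, 69.6% and 71.1%, lay within those of the VGAT plates (67.4% to 81.2%). Kv4 channels carry cytoplasmic KChIP subunits, which set their surface number and inactivation. Kcnip4 was at 775, 885 and 1160 CPM on VGAT plates and at 1519 and 2459 CPM on VGAT+Pitx3 plates (log2 1.10 ± 0.18, adjusted p 0.000833). After thinning, 78.6% (E16) and 91.2% (P0) of VGAT+Pitx3 cells held Kcnip4. The E16 share lay within those of the VGAT plates (54.95% to 79.9%). Kcnip3, which encodes KChIP3, also known as calsenilin or DREAM, was at 18.4 to 28.9 CPM and at 38.0 and 37.7 CPM (log2 0.75 ± 0.16, adjusted p 0.00578). Kcnip1 fell, from 284 to 352 CPM on VGAT plates to 155 CPM on each VGAT+Pitx3 plate (log2 -1.03 ± 0.12, adjusted p 3.59e-05), and Kcnip2 did not pass (log2 -0.08 ± 0.23). Of the transmembrane Kv4 partners, Dpp6 rose (log2 0.67 ± 0.14, adjusted p 0.00671), a call lost without the VGAT+Pitx3 plate of P0 and with a replicate block, and Dpp10 had a log2 fold change of -0.56 ± 0.18 (adjusted p 0.0707).

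Other voltage-gated pores were lower or did not pass. Within the Kv3 family, which allows fast spiking, Kcnc1 (Kv3.1) was at 54.4 to 70.5 CPM on VGAT plates and at 41.4 and 39.9 CPM on VGAT+Pitx3 plates (log2 -0.62 ± 0.14, adjusted p 0.0101). Kcnc4 (Kv3.4) was at 38.9, 62.1 and 110.1 CPM (lowest, median, highest) and at 19.2 and 42.6 CPM, which was lower in the fit with stage (log2 -1.25 ± 0.22, adjusted p 0.0015). Within each stage as titled, the VGAT+Pitx3 plate lay below every VGAT plate for Kcnc4, but its call was lost by the second plate names and without the VGAT+Pitx3 plate of E16. Kcnc2 (log2 -0.13 ± 0.14) did not pass. Of the M-current genes, which limit repetitive firing, Kcnq5 was lower, at 101 to 129 CPM on VGAT plates and at 40.5 and 57.4 CPM on VGAT+Pitx3 plates (log2 -1.28 ± 0.15, adjusted p 3.72e-05). Kcnq3 (log2 0.20 ± 0.15) did not pass. Kcnh5, which encodes Eag2, was at 10.5, 16.4 and 34.3 CPM on VGAT plates and at 4.30 and 6.28 CPM on VGAT+Pitx3 plates (log2 -1.88 ± 0.41, adjusted p 0.00825). Kcnb2 (log2 0.24 ± 0.17), which encodes a delayed rectifier subunit, and the Kv1 gene Kcna2 (log2 0.51 ± 0.20) did not pass, and Kcna1 reached 2.04 CPM at most. Kcng3 encodes Kv6.3, a silent subunit that assembles with Kv2 pores. It had 36 counts on the 7 VGAT plates together (0 to 2.22 CPM) and 34 and 16 counts on the VGAT+Pitx3 plates (7.69 and 7.18 CPM, log2 2.61 ± 0.49, adjusted p 0.00262), and its call was lost without either VGAT+Pitx3 plate.

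Calcium-activated channels were split as well. Kcnn3 (chr3:89520164-89675132), which encodes SK3, the SK channel typical of midbrain dopamine neurons, was at 20.7, 24.4 and 33.6 CPM on VGAT plates and at 44.8 and 66.8 CPM on VGAT+Pitx3 plates. The groups did not overlap in CPM, and the rise was called in all 9 fits without 1 plate (log2 1.11 ± 0.17, adjusted p 0.000393). After thinning, 9.365% (E16) and 19.3% (P0) of VGAT+Pitx3 cells held Kcnn3, against 5.46% to 9.302% on VGAT plates. With cells thinned to 8000 counts the E16 share, 18.9%, lay within those of the VGAT plates (13.4% to 23.3%). Kcnn2, which encodes SK2, was at 69.2 to 103 CPM and at 96.8 and 124 CPM (log2 0.42 ± 0.16, adjusted p 0.162). Although it did not pass in total counts, Kcnn2 passed as higher in exonic counts (log2 0.67 ± 0.17, edgeR adjusted p 0.0242). Kcnn1 had a log2 fold change of -0.80 ± 0.33 (adjusted p 0.205), and Kcnn4 reached 0.555 CPM at most. For BK channels, the pore gene Kcnma1 did not pass (log2 0.17 ± 0.14), while 2 of its modifiers did. Kcnmb2, which encodes the beta subunit that makes BK inactivate, was at 112, 171 and 231 CPM on VGAT plates and at 92.3 and 89.3 CPM on VGAT+Pitx3 plates (log2 -0.87 ± 0.17, adjusted p 0.00403). Lrrc55, a gamma subunit outside the Kcn names, was higher (log2 1.23 ± 0.30, adjusted p 0.0178), with 48.4 CPM at E16 and 20.6 CPM at P0 against 10.0 to 26.2 CPM on VGAT plates, so the groups overlapped. Its call was lost without the VGAT+Pitx3 plate of E16 (log2 0.33) and with a replicate block. The sodium-activated channels Kcnt1 (log2 -0.60 ± 0.20, adjusted p 0.0986) and Kcnt2 (log2 -0.09 ± 0.20) did not pass.

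By family, 1 of 24 tested voltage-gated genes was higher and 5 were lower, with a median log2 fold change of -0.11. Of 8 tested inward rectifiers 1 was higher and 2 were lower, of 8 two-pore genes 2 were higher and 1 was lower, and of 9 calcium- or sodium-activated genes 1 was higher and 1 was lower. The 8 tested auxiliary subunits held 2 that were higher and 1 that was lower, and 1 of 4 modifier alpha subunits was higher. Of 19 partner genes outside the Kcn names 15 were tested and 4 were higher (Drd2, Lrrc55, Dpp6 and Lgi1, a secreted protein known to slow Kv1 inactivation), and 0 were lower in total counts by edgeR. In exonic counts the partners Dpp10 (log2 -0.57 ± 0.16, edgeR adjusted p 0.041) and Cntnap2 (log2 -0.59 ± 0.13, edgeR adjusted p 0.00795) passed as lower. In total counts DESeq2 also called Dpp10 lower (adjusted p 0.0223). DESeq2 called 18 Kcn genes (background 9.4%), and 33 Kcn genes had an unadjusted p under 0.05 in edgeR (53.2%, background 18.1%). In exonic counts alone 16 of 59 tested Kcn genes were called, against a background of 8.84%, with Kcnn2 added as higher. There Kcng3 and Kcnh5 had too few counts to be tested. Kcnq5, 96.1% intronic, kept its direction at log2 -1.59 without passing (adjusted p 0.126, the highest over its alternatives, the lowest of which was 8.96e-14).

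**Figure D2:**
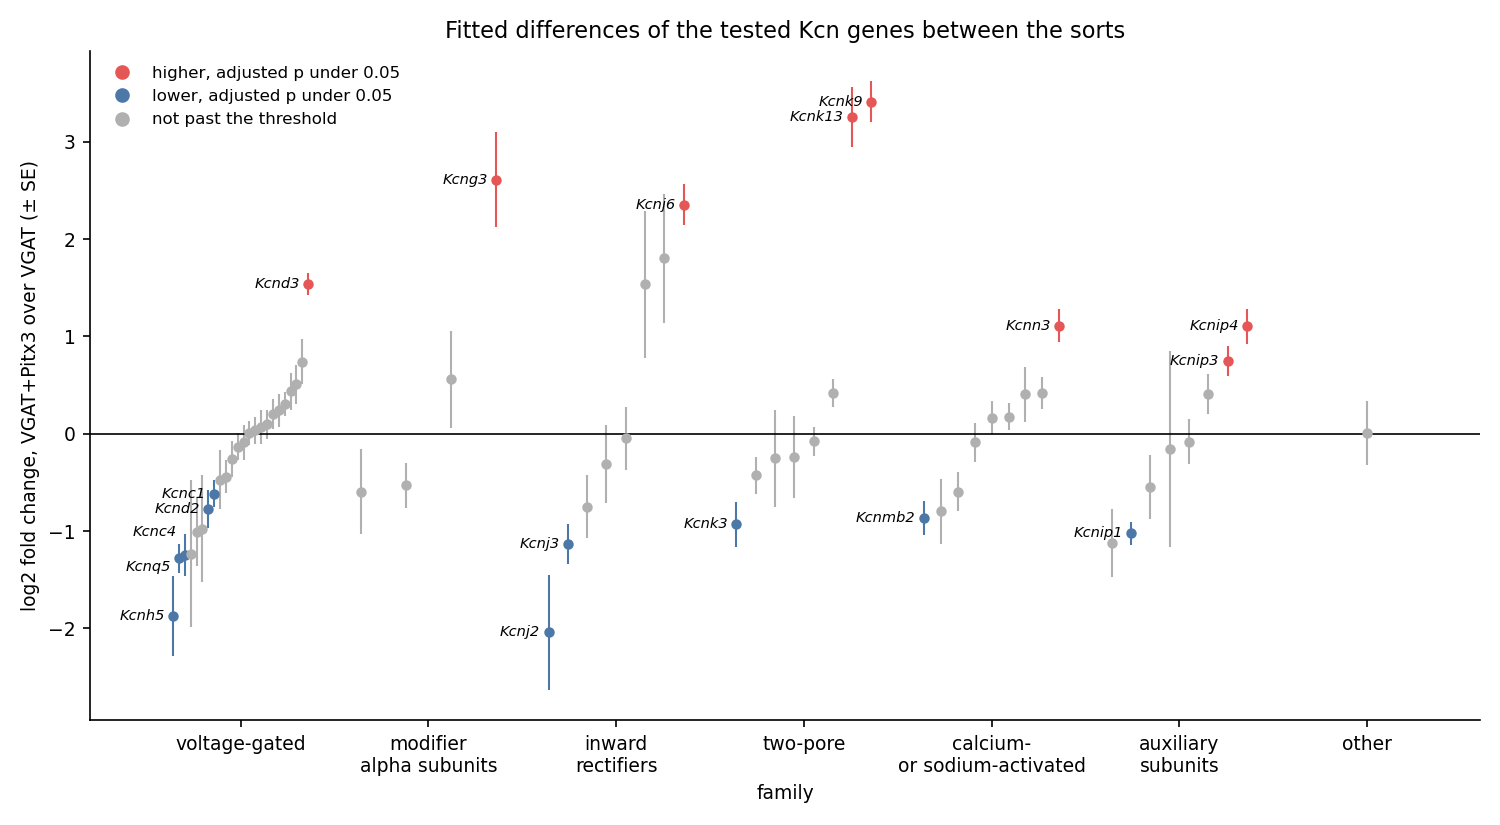
Log2 fold change of VGAT+Pitx3 over VGAT plates with its SE (y axis) for the 62 tested Kcn genes, by family (x axis), with 1 point per gene. Colored and named points passed the threshold, 8 above and 10 below the line at 0, and the voltage-gated, inward rectifier, two-pore, calcium- or sodium-activated and auxiliary families each had members on both sides.

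To show the DNA in front of genes that were higher in VGAT+Pitx3 cells, for 5 of these genes the 250 bases upstream of the RefSeq starts (GRCm38.p6) are given 5' to 3' on the gene's own strand, with CpG dinucleotides in capitals. The windows are chr12:99964249-99964498 (plus strand) for Kcnk13, chr17:83631896-83632145 (minus) for Kcng3, chr3:105451640-105451889 (plus) for Kcnd3, chr3:89519914-89520163 (plus) for Kcnn3, and chr16:94997697-94997946 (minus) and chr16:94856691-94856940 (minus) for a distal and an internal start of Kcnj6. They hold 8, 41, 18, 10, 26 and 7 CpGs in that order, and the median over the 32536 mouse windows was 6.
Kcnk13: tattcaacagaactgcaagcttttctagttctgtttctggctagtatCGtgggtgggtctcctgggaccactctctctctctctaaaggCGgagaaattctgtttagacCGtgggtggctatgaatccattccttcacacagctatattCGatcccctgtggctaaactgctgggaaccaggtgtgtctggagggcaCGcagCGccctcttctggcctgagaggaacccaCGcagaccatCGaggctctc
Kcng3: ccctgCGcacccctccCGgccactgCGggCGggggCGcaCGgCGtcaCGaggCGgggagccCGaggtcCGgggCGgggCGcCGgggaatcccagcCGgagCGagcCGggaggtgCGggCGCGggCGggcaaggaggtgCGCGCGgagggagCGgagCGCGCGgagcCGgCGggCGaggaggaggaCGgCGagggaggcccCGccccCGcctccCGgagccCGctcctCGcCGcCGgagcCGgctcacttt
Kcnd3: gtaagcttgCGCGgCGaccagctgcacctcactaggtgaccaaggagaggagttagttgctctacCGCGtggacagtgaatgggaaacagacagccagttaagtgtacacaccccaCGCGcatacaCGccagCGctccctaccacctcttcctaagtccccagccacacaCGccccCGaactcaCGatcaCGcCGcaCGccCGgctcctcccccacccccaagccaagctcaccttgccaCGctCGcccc
Kcnn3: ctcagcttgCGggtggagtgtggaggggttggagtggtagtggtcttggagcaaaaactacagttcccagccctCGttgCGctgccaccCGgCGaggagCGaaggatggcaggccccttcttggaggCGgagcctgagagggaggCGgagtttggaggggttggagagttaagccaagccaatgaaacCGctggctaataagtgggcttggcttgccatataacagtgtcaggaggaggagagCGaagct
Kcnj6 distal: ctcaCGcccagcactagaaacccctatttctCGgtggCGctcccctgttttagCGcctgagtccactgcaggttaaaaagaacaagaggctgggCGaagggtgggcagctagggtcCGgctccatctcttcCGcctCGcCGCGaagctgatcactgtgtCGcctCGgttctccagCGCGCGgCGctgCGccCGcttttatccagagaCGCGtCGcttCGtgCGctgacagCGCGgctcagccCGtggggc
Kcnj6 internal: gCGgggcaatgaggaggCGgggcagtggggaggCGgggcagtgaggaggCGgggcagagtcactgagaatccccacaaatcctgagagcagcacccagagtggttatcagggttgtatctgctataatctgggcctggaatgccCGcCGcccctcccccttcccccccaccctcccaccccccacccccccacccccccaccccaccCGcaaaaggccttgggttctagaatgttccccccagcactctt
None of these 6 windows held, on either strand, the letters AAAGGTCA (the element of NR4A factors such as Nurr1), TAATCC (PITX factors), AGATAA (for factors of the GATA family) or TATAAA (a core promoter element). Over all windows these letters were found in 1.35%, 6.25%, 9.97% and 12.3%. Over the 90 windows of the Kcn genes with an entry, some of which have more than 1 window, they were found in 1.11%, 2.22%, 3.33% and 3.33%. Kcn windows had a median GC content of 58.8%, against 52.4% over all windows.

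Within the VGAT+Pitx3 plates, cells were next described by Slc6a3, which encodes the dopamine transporter. Its counts were not used to call Kcn genes between the sorts, but Kcnab1 and Kcnh8 were added after their values were seen. After thinning to 4000 counts, 146 cells of the E16 plate held Slc6a3 and 153 did not, and at P0 104 held it and 145 did not. Cells without it can include cells in which it was missed. At 4000 counts 48.8% (E16) and 41.8% (P0) of cells held Slc6a3, and at 8000 counts 58.2% and 55.7% of the cells deep enough did. With 1 plate per stage these are values without a test, given in CPM without TMM scaling and with 95% exact Poisson intervals that cover counting error only. Th was at 926.7 and 876.8 CPM in cells with Slc6a3 and at 95.6 and 123 CPM in cells without it. GABA markers ran the other way, with Gad2 at 230.1 and 244 CPM in cells with Slc6a3 and at 1677 and 1568 CPM in the others, and Slc32a1 at 110.2 and 128 CPM against 339 and 379 CPM. Among genes with at least 20 counts on each plate, 4 of 42 Kcn genes were 2-fold or more higher in cells with Slc6a3 on both plates (9.52%, background 1.51% of 10299 genes), namely Kcnd3, Kcnj6, Kcnn3 and Kcnab1, and 4 were 2-fold or more lower on both (9.52%, background 2.28%), namely Kcnh7, Kcnh8, Kcnj3 and Kcnk9.

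Kcnd3 stood at 599 CPM (568.5 to 630) in cells with Slc6a3 and at 246 CPM (225 to 268) in cells without it at E16, and at 499.8 CPM (457 to 546) and 235 CPM (209 to 263) at P0. Kcnj6 showed 174 CPM (158 to 192) against 83.3 CPM (71.4 to 96.5) at E16 and 169 CPM (144 to 196) against 82.5 CPM (67.5 to 99.9) at P0. For both genes the cells without Slc6a3 still lay above the highest VGAT plate. Kcnn3 differed from them: it was at 63.0 CPM (53.5 to 73.7) and 109.7 CPM (90.0 to 132) in cells with Slc6a3 and at 19.9 CPM (14.3 to 26.9) and 29.9 CPM (21.1 to 41.0) in the others, set against 20.7 to 33.6 CPM on the VGAT plates. Kcnab1, which encodes a cytoplasmic beta subunit of Kv1 channels and did not pass between the sorts, was at 42.4 and 58.9 CPM against 20.8 and 12.6 CPM.

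Kcnk9 ran the other way. It was at 149 CPM (134 to 165) in cells with Slc6a3 and at 402 CPM (376 to 430.1) in cells without it at E16, and at 309.9 CPM (276 to 347) and 679.7 CPM (635 to 726) at P0, and all 4 values lay above every VGAT plate. Kcnj3 was at 7.67 CPM (4.62 to 12.0) against 29.3 CPM (22.5 to 37.6) at E16 and at 15.2 CPM (8.53 to 25.1) against 34.6 CPM (25.1 to 46.4) at P0, set against 40.6 CPM on the lowest VGAT plate. Kcnk13 (17.4 and 15.2 CPM with Slc6a3, 27.4 and 22.0 CPM without) and Kcnip4 (1227 and 2044 CPM with, 1727 and 2633 CPM without) were above all VGAT plates in both kinds of cells. Kcnh7, which encodes Erg3, was at 153 and 134 CPM with Slc6a3 and at 417 and 378 CPM without it. Kcnh8, which encodes Elk1, was at 42.8 and 46.7 CPM against 139 and 123 CPM. Neither of these Kcnh genes passed between the sorts.

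**Figure D3:**
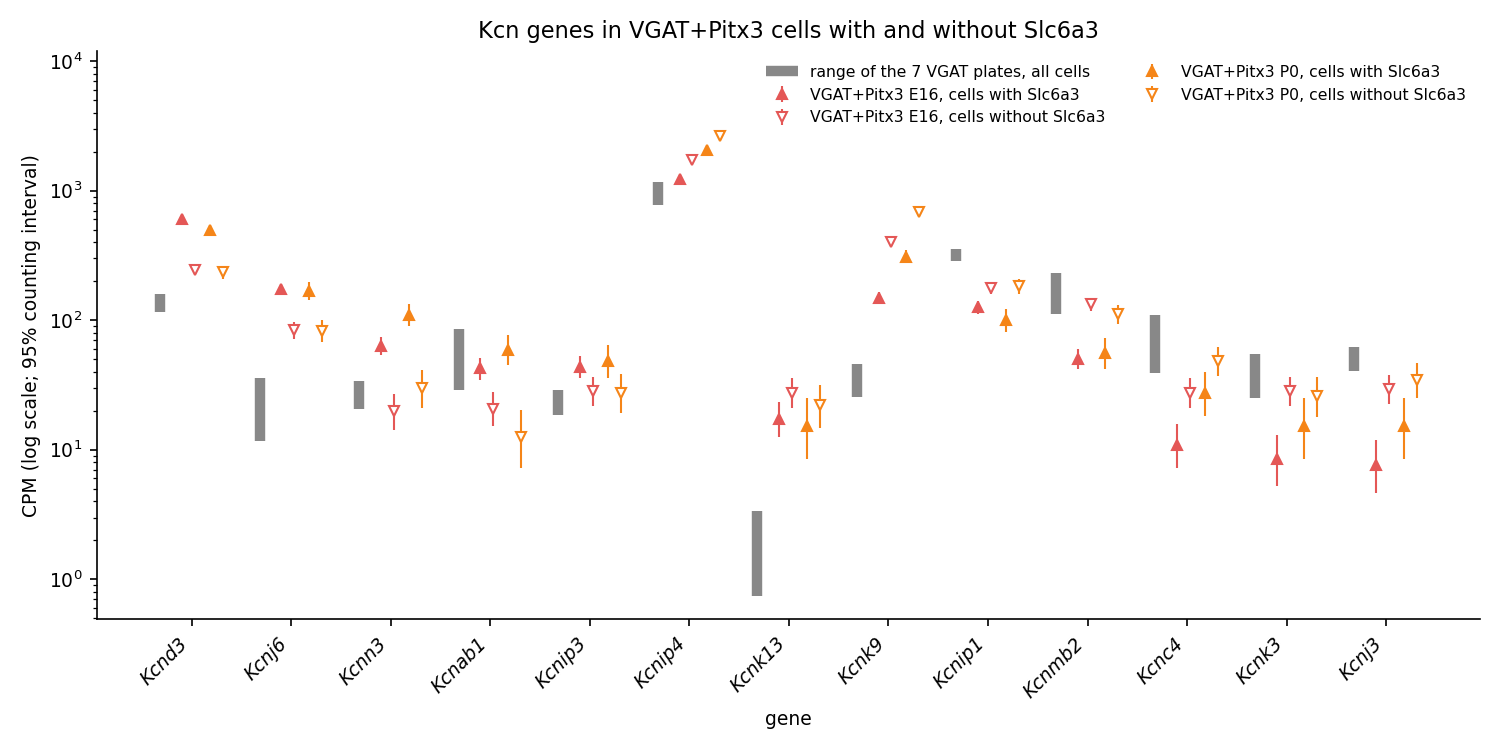
CPM on a log scale (y axis) of 13 Kcn genes (x axis) in VGAT+Pitx3 cells with (filled triangles) and without (open triangles) Slc6a3, 1 plate per stage, with 95% Poisson intervals, beside the range of the 7 VGAT plates (grey, TMM-scaled). Kcnd3, Kcnj6, Kcnn3, Kcnab1 and Kcnip3 lay higher in the cells with Slc6a3 at both stages. Kcnk9, Kcnk13, Kcnip4, Kcnj3, Kcnk3, Kcnc4 and Kcnmb2 lay lower in them. Kcnab1 was added after its values were seen.

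The stage contrast asked which genes changed between E16 and P0 on the 7 VGAT plates. Of 57 tested Kcn genes 2 rose and 0 fell (3.51%, background 4.58% of 13639 genes, 2.84% higher and 1.74% lower). At an unadjusted p under 0.05 were 20 Kcn genes (35.1%, background 24.1%). The median log2 fold change over the 57 tested Kcn genes was 0.06, against 0.02 over all genes. Both that rose are voltage-gated. Kcnc4 was at 38.9, 62.1, 41.5 and 57.3 CPM on the E16 plates (replicates 1 to 4) and at 72.6, 90.0 and 110.1 CPM on the P0 plates (replicates 1 to 3). Kcna6, which encodes Kv1.6, a low-threshold channel, was at 38.2, 50.3, 49.6 and 38.1 CPM and at 66.6, 68.9 and 65.1 CPM. In neither gene did the stages overlap, and the fit gave log2 0.89 ± 0.18 for Kcnc4 (edgeR adjusted p 0.0227) and log2 0.61 ± 0.14 for Kcna6 (edgeR adjusted p 0.0352). By the second plate name the log2 fold changes were -0.20 and -0.09, and 0 Kcn genes were called (3 at an unadjusted p under 0.05). The VGAT plates whose names give the same stage are only 3, E16 replicates 1 and 2 and P0 replicate 2, so that the P0 arm is 1 plate, the one with the high astrocyte list. There Kcnc4 was at log2 0.82 and Kcna6 at log2 0.63, neither past the threshold, and 1 Kcn gene was called, Kcnj10, the astrocyte channel gene described with the glial markers below. Without VGAT E16 replicate 1 or 3, or VGAT P0 replicate 2 or 3, 0 Kcn genes passed. Without VGAT E16 replicate 4 Kcnc4 alone passed, and without VGAT E16 replicate 2 3 passed (Kcnc4 and Kcna6 higher at P0, Kcnh8 lower). Without VGAT P0 replicate 1 5 passed, with Kcnc4 and Kcnab2 higher and Kcnk10, Kcnh7 and Kcnb2 lower. Exonic counts called Kcnc4 only (background 3.75%), and DESeq2 called 4 genes (Kcnc4 and Kcna6 higher, Kcnh8 and Kcnmb2 lower, background 6.92%).

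**Figure D4:**
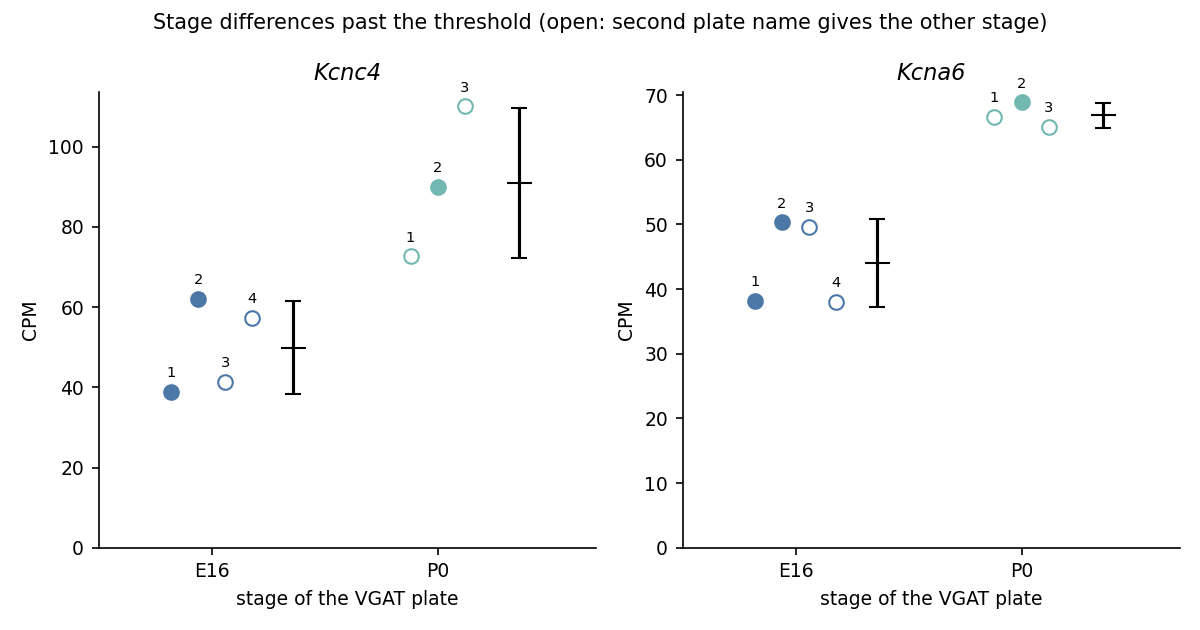
CPM (y axis) of Kcnc4 and Kcna6 on the VGAT plates by stage (x axis), with 1 numbered point per replicate and the mean ± SD in black (n = 4 for E16 and n = 3 for P0). Every P0 plate lay above every E16 plate, and open points are the 4 plates whose second name gives the other stage.

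Among genes that did not pass the stage test, Kcnh4 (Elk3) had a log2 fold change of -0.44 ± 0.12 (adjusted p 0.0554), Kcnmb2 one of -0.51 ± 0.14 (adjusted p 0.0611), Kcnh8 one of -0.59 ± 0.17 (adjusted p 0.0618), and Kcnab2, which encodes a Kv1 beta subunit, one of 0.71 ± 0.21 (adjusted p 0.0708). The subunits that marked the VGAT+Pitx3 sort, Kcnk9, Kcnj6, Kcnd3 and Kcnn3, did not pass either. Of the partners, Gabbr2 rose from 140 ± 7.27 CPM (SD, n = 4) to 201 ± 17.9 CPM (SD, n = 3; log2 0.53 ± 0.11, edgeR adjusted p 0.0227). Cntn2, which encodes the adhesion molecule that anchors Kv1 channels beside nodes, rose from 34.6 ± 2.18 to 51.4 ± 5.16 CPM (log2 0.58 ± 0.13, adjusted p 0.0352). Each partner call held in 2 of the 7 fits without 1 plate, neither held by the second plate names or with a replicate block, and that of Cntn2 did not hold in exonic counts.

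Whether stage acted differently in the sorts was asked with an interaction term. None of 65 tested Kcn genes was called by edgeR's quasi-likelihood test (0 of 15724 genes, background 0%), 5 had an unadjusted p under 0.05 (7.69%, background 6.35%), and DESeq2 also called 0 Kcn genes (background 0.0191%). Among them were Kcnt2 (log2 0.97 ± 0.31), Kcnj3 (0.94 ± 0.31), Kcnip4 (0.88 ± 0.29) and Kcnd2 (0.79 ± 0.30), each with an adjusted p of 0.773. Kcnk9, at 277 CPM at E16 and 549.9 CPM at P0 on the VGAT+Pitx3 plates, had an interaction of log2 0.88 ± 0.42 (adjusted p 0.778). With 1 VGAT+Pitx3 plate per stage, that plate was assumed to vary as the VGAT plates do.

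Within the VGAT plates, cells with Six3 and no Pax5 count were set against cells with Pax5 and no Six3 count, 637 against 197 cells, since these factors mark separate groups of reticulata GABA neurons. Pax5 cells were few on VGAT E16 replicate 1 (5 cells), VGAT P0 replicate 1 (5) and VGAT P0 replicate 3 (7). With the plate as a block, 5 of 49 tested Kcn genes differed (10.2%, background 2.82% of 11773 genes), and 15 had an unadjusted p under 0.05 (30.6%, background 10.9%). In Six3 cells 3 were higher (Kcnq5, Kcnma1 and Kcnmb2, background 1.42%) and 2 were lower (Kcnd3 and Kcnip1, background 1.4%). Kcnma1 and Kcnmb2 encode the pore and an auxiliary subunit of 1 channel, BK, and Kcnd3 and Kcnip1 encode a pore and an auxiliary subunit of the A-type channel.

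Kcnd3 was at 130 ± 18.5 CPM (SD, n = 7 plates) in Six3 cells and at 207 ± 33.4 CPM in Pax5 cells, and Six3 cells were lower on 7 of 7 plates (log2 -0.71 ± 0.14, edgeR adjusted p 0.00361). Its call held in each fit without 1 plate and in exonic counts. Kcnip1 was also lower on 7 of 7 plates, at 298 ± 37.7 and 399 ± 53.3 CPM (log2 -0.40 ± 0.10, adjusted p 0.0328), but its call held in 1 of the 7 fits without 1 plate. Kcnma1 in Six3 cells exceeded its level in Pax5 cells on each of the 7 plates, at 497 ± 107 and 321 ± 185 CPM (log2 0.72 ± 0.16, adjusted p 0.0151). Among its pairs, VGAT E16 replicate 1 stood widest apart, at 445 CPM in Six3 and 76.0 CPM in Pax5 cells. Kcnmb2, at 181 ± 50.0 and 115 ± 48.5 CPM (log2 0.60 ± 0.14, adjusted p 0.0194), and Kcnq5, at 131 ± 37.9 and 64.6 ± 38.1 CPM (log2 0.92 ± 0.22, adjusted p 0.0209), were likewise higher on each plate. The genes of this paragraph were chosen by this same contrast. How many of all tested genes kept the same direction on every plate was not computed. Without VGAT E16 replicate 2 or 3, 1 Kcn gene, Kcnd3, was called, without VGAT E16 replicate 1 2 were called, and without VGAT E16 replicate 4 3 were called. In exonic counts 2 were called, Kcnd3 and Kcnma1 (background 2.74%), and DESeq2 called the 5 genes above (background 2.28%).

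**Figure D5:**
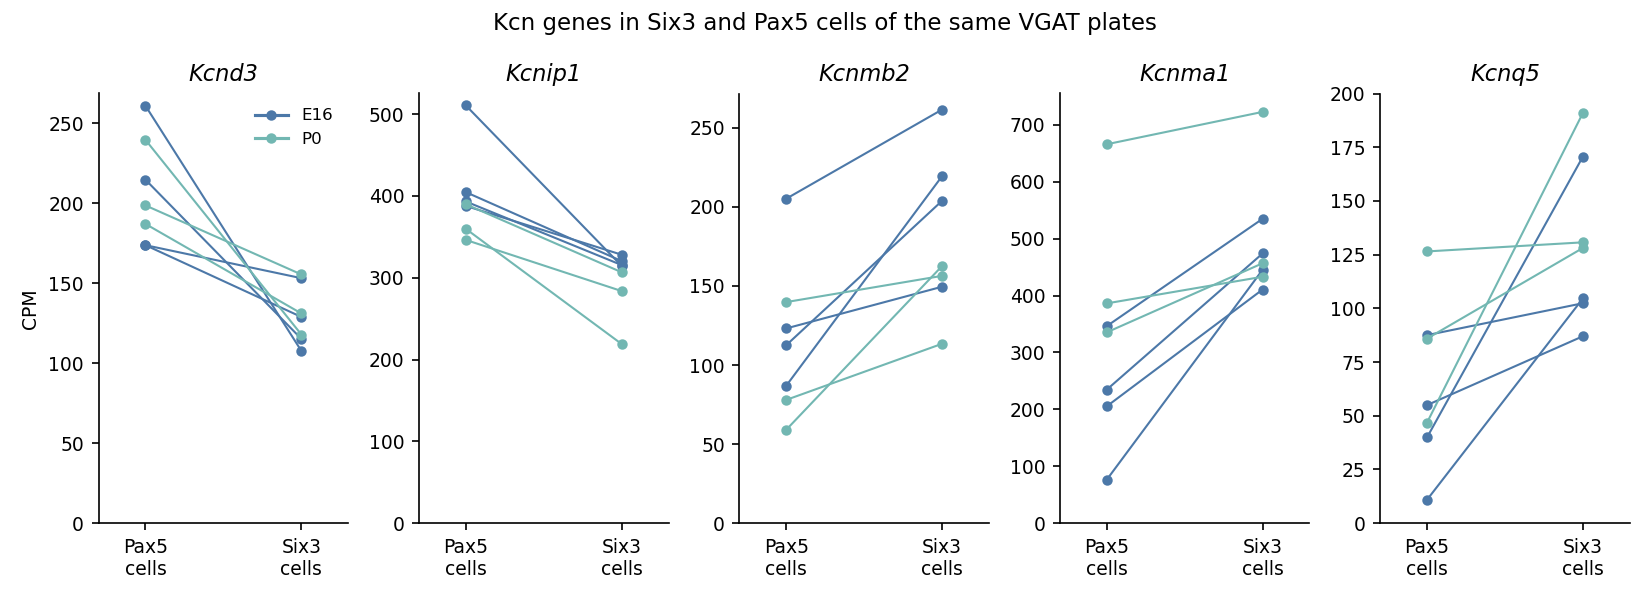
CPM (y axis) of the 5 Kcn genes that differed between Six3 and Pax5 cells (x axis), with 1 line per VGAT plate. Kcnd3 and Kcnip1 fell and Kcnmb2, Kcnma1 and Kcnq5 rose from Pax5 to Six3 cells on each of the 7 plates. The genes were chosen by this same contrast. The share of all tested genes with the same direction on every plate was not computed.

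Counts in cells with non-neuronal markers were examined for a pair of astrocyte channel genes. Kcnj10, which encodes the astrocyte channel Kir4.1, had 13 counts on VGAT P0 replicate 2, 13 on the VGAT+Pitx3 plate of E16 and 8 on that of P0. Of these, 12, 11 and 5 lay in the 15, 5 and 11 cells of those plates that held 3 or more of 21 non-neuronal marker genes. Kcnj16, its usual partner, had 14 and 13 counts on the VGAT+Pitx3 plates, 0 and 1 of them in such cells. Without the 37 cells of this kind on all plates, 18 Kcn genes were again called between the sorts, and 2 between the stages.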

How the data were processed

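RNA of single sorted cells was barcoded with the CEL-seq2 method in 384-well plates, with a molecular identifier (UMI) of 6 bases per the labels. The authors deposited expected counts, that is UMI numbers corrected for collisions, from reads aligned with STAR to the mouse genome (mm10, GRCm38), as a total, an intronic and a spliced (exonic) table. No column lay outside the 9 plates, and strandedness is not given in the sources used here.

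Kept wells were summed per plate and rounded to whole counts. Total counts per plate (1435919 to 5408710) set the precision, and intervals and floors cover counting error only. Genes that passed filterByExpr were tested with the quasi-likelihood F test of edgeR 4.0.16 (TMM, R 4.3.3, Benjamini-Hochberg threshold 0.05 over all genes), and the SE was the log2 fold change over the root of F. DESeq2 1.42.0 was an alternative. Python 3.11.15 with numpy 2.4.6, pandas 2.3.3, scipy 1.17.1 and matplotlib 3.10.9 did the rest. The script was tested on simulated data with known changes. No doublet caller was run, and an alternative left out cells with over 2 times their plate's median count. Same-numbered VGAT plates of E16 and P0 did not deviate together (r 0.0331, 0.0251 and 0.0318), so numbers were not taken as pairs. Gene positions are from GENCODE on GRCm38, and promoters from RefSeq.

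The members and all lists were chosen with earlier results of these data known. Genes were named where they passed a comparison, were among the 10 with the highest mean in either sort, or stood on a list of genes with known roles in these neurons. Kcnab1, Kcnab2, Kcnh1, Kcnh4, Kcnh8, Kcnk10, Kcnj10 and Kcnj16 were added after their values were seen. Some genes on the list of roles are counted in the totals and are not reported here by name. The fits by the second plate name, on plates with 1 stage in both names, and without cells of 3 or more non-neuronal marker genes were also chosen after seeing the data.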

Additional observations from a re-analysis of the deposited data

How the results depend on the processing

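Of 322 values of the 18 genes called between the sorts under alternatives, 291 kept direction and call, 31 lost the call and 0 reversed. The count of called genes was 18 with DESeq2, 18 with RLE size factors, 21 without a filter, 16 in exonic counts, 14 with the replicate block, 16 by the second plate names, and 8 to 19 without 1 plate (8 without the VGAT+Pitx3 plate of E16). Between the stages, 2 called genes became 4 with DESeq2, 8 without a filter, 3 without likely doublets, 1 in exonic counts, 1 with the replicate block, 1 on the plates with the same stage in both names and 0 with the stage of the second name, where Kcna6 was at log2 -0.0884 and Kcnc4 at log2 -0.2021. Leaving out 1 plate gave 0 to 5 genes (0 without VGAT E16 replicate 1 or 3 or VGAT P0 replicate 2 or 3, and 5 without VGAT P0 replicate 1). Falls made up 2 of the stage calls with DESeq2, 6 without a filter, 1 without likely doublets and 3 without VGAT P0 replicate 1. Between Six3 and Pax5 cells, 5 called genes became 2 in exonic counts and 1 with no replicate block for the plate, and 1 to 5 without 1 plate (1 without VGAT E16 replicate 2 or 3). The interaction gave 0 genes in every fit, and the fits without a VGAT+Pitx3 plate could not be made because no plate of that sort and stage remained. The cause of these shifts was not tested. Shares of all genes called were computed for the main, exonic and DESeq2 fits only. The other counts of Kcn genes therefore have no background beside them. Replicate numbers shared only a number, since same-numbered plates did not deviate together. Depth limits genes near the floor of 0.555 to 2.09 CPM, such as Kcng3 and Kcnj2, and the VGAT+Pitx3 sort rests on 2 plates.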
